A study of Mus musculus with 9 samples.

Results

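The genes described here are 10 immediate early genes and stress-response genes of the mouse retina, namely *Fos*, *Fosb*, *Jun*, *Junb*, *Egr1*, *Egr3*, *Npas4*, *Arc*, *Nr4a1*, and *Atf3*. They were chosen by name from the 54532 genes of the count table, with earlier results of these data known. Shares of the 10 set beside all genes below are therefore descriptions only. Each name matched 1 gene, and all 10 passed the filter on low counts and were among the 17540 genes tested. RNA-Seq was performed on retinal tissue of 9 wild-type C57BL/6 mice, all aged P17 and divided evenly among 3 groups of 3. In oxygen-induced retinopathy (OIR), mouse pups are kept in high oxygen, which obliterates vessels of the posterior retina. The poorly perfused retina becomes hypoxic after the return to room air at P12. Control mice did not undergo OIR and carry the label Control+DMSO. OIR mice received DMSO, the vehicle, and treated OIR mice received a small-molecule HIF inhibitor, as a single intraocular injection at P12. This inhibitor targets HIF-1 and HIF-2 (the factors induced by hypoxia). It is a brominated indolyl thiazole, and not digoxin or acriflavine, the HIF inhibitors that the paper also tested. The amount is 70 ng in one label and a concentration of 70 ng/µl in the protocol text and the paper. The mice bear the numbers 1, 6, and 7 (control), 3, 5, and 6 (OIR), and 2, 5, and 10 (treated OIR), and each mouse was 1 replicate.

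Immediate early genes are transcribed within minutes of a stimulus such as a growth factor, calcium entry through synaptic receptors, or injury, and need no new protein for this. Fos and Jun proteins pair to form activator protein 1 (AP-1), the Egr proteins are zinc finger transcription factors, and *Npas4* and *Arc* are best known from neurons driven by synaptic input. *Nr4a1* encodes an orphan nuclear receptor, and *Atf3* encodes a transcription factor of the ATF/CREB family that is widely used as a marker of injured neurons, among them retinal ganglion cells after optic nerve damage. Transcripts of these genes are short-lived, and handling of tissue before RNA isolation is itself a known stimulus for them. The interval between death and RNA isolation is not given in the sources used here, and its part in any result was not tested.

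Many of these promoters hold cyclic AMP response elements (CREs), to which CREB and ATF proteins bind. The 250 bases before the start of the gene were taken from RefSeq (GRCm38.p6) for the 7 genes that matched the table and were searched here, *Fos*, *Fosb*, *Jun*, *Junb*, *Npas4*, *Nr4a1*, and *Atf3*. The core of the CRE, TGACG, was found on either strand in 6 of the 7, and in 17.8% of all 32851 promoters of the same length. *Nr4a1* held 4 matches, *Fos* and *Npas4* held 2 each, *Fosb*, *Junb*, and *Atf3* held 1 each, and *Jun* held none. The full site TGACGTCA, the AP-1 site TGANTCA, and the CArG box bound by serum response factor were found in none of the 7, against 1.55%, 6.75%, and 1.47% of all promoters. ACGTG, the A form of the HIF binding core RCGTG (R is A or G), was likewise in none of the 7 and in 16.6% of all promoters. For each of these 4 motifs this says only that the letters are absent from this window. Bases farther upstream, where such sites may lie, were not searched. The sequences of 3 AP-1 genes and *Atf3* are shown to place the CRE cores in genes that the results describe, with *Jun* as the one without an exact match. Similar strings, such as TGACATCA in the *Jun* sequence, were not counted. They run 5′ to 3′ up to the base before the start, and capitals mark TGACG or its complement CGTCA.
Fos (chr12:85473640-85473889, + strand): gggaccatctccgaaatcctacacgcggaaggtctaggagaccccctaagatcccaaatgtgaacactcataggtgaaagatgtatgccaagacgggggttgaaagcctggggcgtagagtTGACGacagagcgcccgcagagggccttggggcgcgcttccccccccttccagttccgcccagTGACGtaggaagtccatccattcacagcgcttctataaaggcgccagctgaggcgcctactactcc
Jun (chr4:95052223-95052472, − strand): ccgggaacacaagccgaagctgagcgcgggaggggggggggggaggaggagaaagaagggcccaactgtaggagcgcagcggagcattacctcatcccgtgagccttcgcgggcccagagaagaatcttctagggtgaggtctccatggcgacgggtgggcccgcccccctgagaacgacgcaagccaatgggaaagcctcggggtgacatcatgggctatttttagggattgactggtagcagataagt
Junb (chr8:84978749-84978998, − strand): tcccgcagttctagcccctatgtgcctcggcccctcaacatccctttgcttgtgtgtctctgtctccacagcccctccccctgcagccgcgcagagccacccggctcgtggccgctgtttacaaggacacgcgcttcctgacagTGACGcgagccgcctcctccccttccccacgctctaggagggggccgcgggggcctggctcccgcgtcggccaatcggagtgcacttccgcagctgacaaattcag
Atf3 (chr1:191183334-191183583, − strand): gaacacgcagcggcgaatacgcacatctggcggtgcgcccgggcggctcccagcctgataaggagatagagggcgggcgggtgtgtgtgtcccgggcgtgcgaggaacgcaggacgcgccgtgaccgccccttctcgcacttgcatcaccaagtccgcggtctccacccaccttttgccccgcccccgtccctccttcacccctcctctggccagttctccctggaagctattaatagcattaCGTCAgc
The matches in *Fos* ended 125 and 62 bases before the start, that in *Junb* ended 102 bases before it, and that in *Atf3* ended 3 bases before it. The RefSeq start lies inside the gene as the count table bounds it for *Atf3* (by 34706 bases) and *Nr4a1* (by 12577 bases). Other starts of these 2 genes were not searched. A match is a description of letters and not a measurement of binding.

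**Figure D1:**
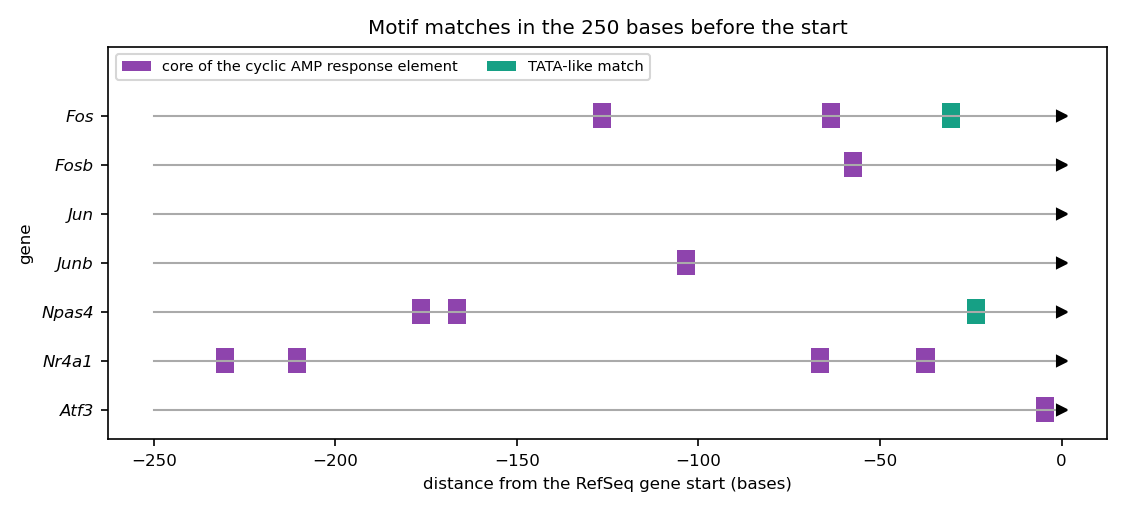
Motif matches in the 250 bases before the RefSeq start of 7 genes, with the distance from the start in bases on the x axis and 1 gene per line. Purple boxes are the CRE core TGACG, on either strand, and green boxes are a TATA-like match (TATAA). CRE cores appear on 6 of the 7 lines, with 4 on *Nr4a1* and none on *Jun*.

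Total counts ranged from 16028731 to 27213184 per mouse. Treated OIR mouse 2 stood apart, since 19 crystallin genes of the lens held 15.8% of its counts and at most 0.186% in the other 8 mice. Markers of retinal ganglion cells (8 genes) summed to between 1352 and 1959 CPM in control mice, 132 and 661 CPM in OIR mice, and 60.3 and 1137 CPM in treated OIR mice, lowest in treated OIR mouse 2 and, among OIR mice, in OIR mouse 6. Amacrine cell markers (6 genes) ranged from 724 to 976 CPM in control, 230 to 449 CPM in OIR, and 191 to 736 CPM in treated OIR mice. The astrocyte markers *Gfap* and *Pax2* summed to 59.3 to 218 CPM in control, 232 to 705 CPM in OIR, and 106 to 399 CPM in treated OIR mice. Which cells held these transcripts was not measured, so the sum is not a measure of astrocytes alone. Rod photoreceptor markers (5 genes) were abundant in every mouse, at 33357 to 64661 CPM, and no marker of these 4 cell types was at 0 in all mice. In bulk RNA, fewer cells of a type and less RNA per cell cannot be told apart.

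Per kilobase of gene length, *Jun* was the most abundant of the 10 in control retina, at 22.5 ± 3.66 CPM per kb (mean ± SD, n = 3). *Junb* followed at 16.5 ± 3.18, *Egr1* at 16.1 ± 5.002, *Fos* at 11.9 ± 0.710, *Nr4a1* at 11.6 ± 1.07, and *Atf3* at 5.30 ± 3.24 CPM per kb. *Arc* at 1.01 ± 0.375, *Npas4* at 0.671 ± 0.174, *Fosb* at 0.564 ± 0.299, and *Egr3* at 0.317 ± 0.0484 CPM per kb were lower. The SDs of neighbors in this order overlapped, except between *Nr4a1* and *Atf3* and between *Atf3* and *Arc*. In OIR mice the order began with *Junb* (35.3 ± 14.1), *Egr1* (32.2 ± 10.8), and *Jun* (31.3 ± 5.97 CPM per kb), whose SDs overlapped. *Egr3*, the lowest in control retina, reached 1.31 ± 0.458 CPM per kb in OIR mice.

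**Figure D2:**
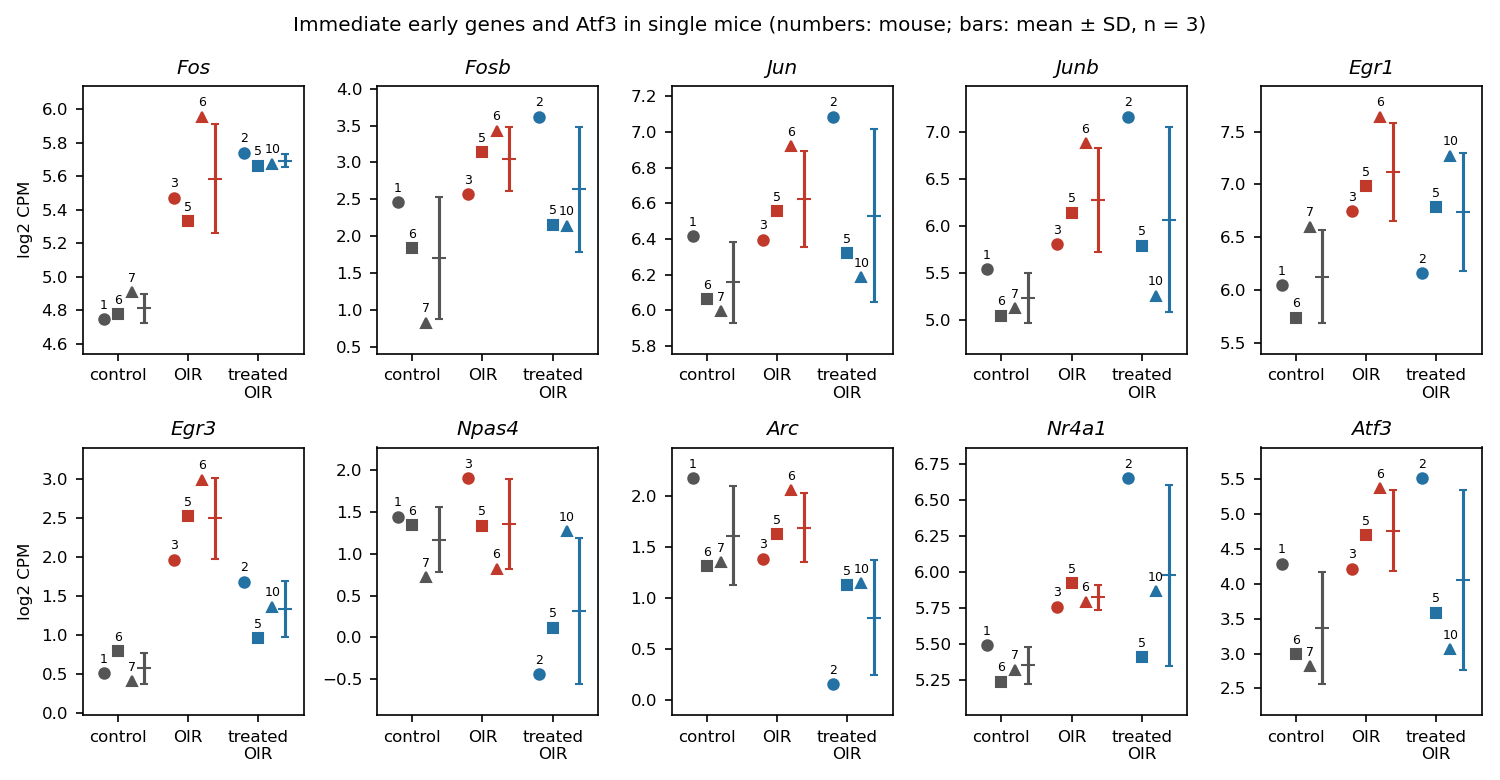
Log2 CPM of each gene in each mouse, with control mice in gray, OIR mice in red, and treated OIR mice in blue, numbers for mice, and bars for the mean ± SD (n = 3). The y axes differ between genes. *Fos* and *Egr3* were higher in all 3 OIR mice than in any control mouse, and treated OIR mouse 2 lay above the other treated mice for *Fosb*, *Jun*, *Junb*, *Nr4a1*, and *Atf3*.

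The first comparison addressed how the ischemic retina of OIR mice differed from control retina. All 10 genes had a positive log2 fold change, with a median of 0.90 beside 0.03 over all genes tested. *Egr3* was the 1 gene of the 10 called at an adjusted p below 0.05 (edgeR quasi-likelihood test, Benjamini-Hochberg), a share to be read beside 0.941% of all genes tested. *Fos*, *Fosb*, *Junb*, *Egr1*, and *Egr3* were the 5 with an unadjusted p below 0.05, beside 23.8% of all genes. The values of *Fos*, *Fosb*, *Junb*, *Egr1*, *Egr3*, and *Nr4a1*, 6 of the 10, were higher in every OIR mouse than in every control mouse, beside 15.9% of all genes.

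*Egr3*, a target of calcineurin and MAP kinase signaling in neurons and lymphocytes, was measured at 1.33, 1.63, and 1.22 CPM in control mice 1, 6, and 7. In OIR mice 3, 5, and 6 it was measured at 3.80, 5.64, and 7.83 CPM, from 71, 121, and 174 counts. Every OIR mouse was thus above every control mouse, and OIR mouse 6 was the highest. *Egr3* rose 4.11-fold (95% interval 2.40 to 7.02, log2 fold change 2.04 ± 0.34 [SE], edgeR adjusted p = 0.0411). The exact 95% Poisson intervals of the counts, which cover counting error only, were 55.5 to 89.6 for the lowest OIR mouse and 22.7 to 46.3 for the control mouse with the highest CPM. The adjusted p lay between 1.04e-05 and 0.170 over 17 alternative analyses and was below 0.05 in 9 of them, with a log2 fold change of 1.75 to 2.27 and an unadjusted p below 0.05 in all 17. In 7 of the 9 analyses that left out 1 mouse, *Egr3* was not called and neither was any other gene of the table.

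*Fos*, the AP-1 subunit most often used as a marker of recent neuronal activity, was measured at 26.8, 27.3, and 29.9 CPM in control mice 1, 6, and 7 and at 44.3, 40.2, and 61.9 CPM in OIR mice 3, 5, and 6. The groups did not overlap, and control mice lay within 1.12-fold of each other. *Fos* was 1.74-fold higher in OIR mice (95% interval 1.37 to 2.22), but missed the threshold (log2 fold change 0.80 ± 0.15, edgeR adjusted p = 0.0528). It was called in 8 of 17 alternative analyses, in which its adjusted p ranged from 0.000611 to 0.180. The spread of *Fos* within groups, an SD of 0.20 on the log2 CPM scale, lay at the 37.1 percentile of all genes tested and was the smallest of the 10.

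*Fosb*, a related AP-1 subunit, was measured at 5.41, 3.47, and 1.68 CPM in control mice 1, 6, and 7 and at 5.83, 8.72, and 10.7 CPM in OIR mice 3, 5, and 6. The lowest OIR mouse was only slightly above control mouse 1, and the log2 fold change of 1.24 ± 0.52 had an edgeR adjusted p of 0.188. *Junb*, a Jun family subunit, was measured at 46.4, 32.9, and 34.8 CPM in control mice and 55.8, 70.3, and 118 CPM in OIR mice, in the same order. Its log2 fold change was 1.09 ± 0.46 (edgeR adjusted p = 0.191). *Jun* overlapped between groups, at 85.2, 66.7, and 63.7 CPM in control mice and 84.1, 94.1, and 121 CPM in OIR mice, with a log2 fold change of 0.47 ± 0.24 (edgeR adjusted p = 0.274). Over the 17 alternative analyses *Junb* was called in 3, *Fosb* in 2, and *Jun* in 0. OIR mouse 6 was the highest of the OIR mice for all 4 AP-1 genes. *Junb* overlaps the abundant gene *Prdx2* (4285 to 8622 counts) on the opposite strand, and *Jun* overlaps the antisense gene *Junos* (13 to 39 counts). Whether counting used strand is not given in the sources used here, so reads of these pairs may not have been told apart.

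*Egr1*, which responds to growth factors and to light in the retina, was measured at 66.1, 53.4, and 97.0 CPM in control mice 1, 6, and 7 and at 107, 126, and 199 CPM in OIR mice 3, 5, and 6. The groups did not overlap, and OIR mouse 6 was again the highest. *Egr1* had a log2 fold change of 1.001 ± 0.33 (edgeR adjusted p = 0.125). It was called in 4 of 17 alternative analyses, and its unadjusted p was below 0.05 in 15 of them. *Nr4a1* lay at 44.9, 37.6, and 39.8 CPM in control mice and 54.0, 60.6, and 55.4 CPM in OIR mice, 2 narrow groups that did not overlap (log2 fold change 0.47 ± 0.26, edgeR adjusted p = 0.303). The SE of *Nr4a1* comes from all 9 mice, and its SD within OIR mice was 0.09 on the log2 CPM scale, but 0.63 within treated OIR mice. Without treated OIR mouse 2, *Nr4a1* had an edgeR adjusted p of 0.0554. It was called in 2 of the 17 alternative analyses.

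*Npas4*, which is induced by calcium entry in neurons, was measured at 2.62, 2.43, and 1.55 CPM in control mice 1, 6, and 7 and at 3.64, 2.42, and 1.66 CPM in OIR mice 3, 5, and 6, which overlapped. Its log2 fold change was 0.22 (95% interval -0.89 to 1.33, edgeR adjusted p = 0.830). *Arc*, whose protein acts at synapses, lay at 4.40, 2.38, and 2.45 CPM in control mice and 2.51, 2.98, and 4.05 CPM in OIR mice. The groups overlapped, with a log2 fold change of 0.04 (95% interval -0.82 to 0.90, edgeR adjusted p = 0.963). For both genes the interval included changes of over 0.8 on the log2 scale in either direction. *Npas4* turned negative without OIR mouse 3 (-0.11), and *Arc* turned negative without OIR mouse 6 (-0.17), without control mouse 6 (-0.11), or without control mouse 7 (-0.09).

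*Atf3* was the most variable of the 10, with an SD within groups of 0.94 on the log2 CPM scale, at the 92.5 percentile of all genes tested. It was measured at 19.5, 7.83, and 6.96 CPM in control mice 1, 6, and 7 and at 18.5, 25.8, and 41.3 CPM in OIR mice 3, 5, and 6. Control mouse 1 was above OIR mouse 3, so the groups overlapped. The log2 fold change was 1.31 ± 0.66 (95% interval -0.17 to 2.80, edgeR adjusted p = 0.259). *Atf3* was called in 1 of 17 alternative analyses. Among OIR mice, *Atf3* was highest in OIR mouse 6, where ganglion cell markers were lowest, at 132 CPM. Other markers were also lowest there, among them rod (33357 CPM), cone (655), amacrine (230), endothelium (50.7), and pericyte markers (70.6 CPM). Astrocyte (705 CPM) and microglia markers (119 CPM) were highest there, and Müller glia and horizontal cell markers lay in between. The part of these differences in the *Atf3* result was not tested.

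**Figure D3:**
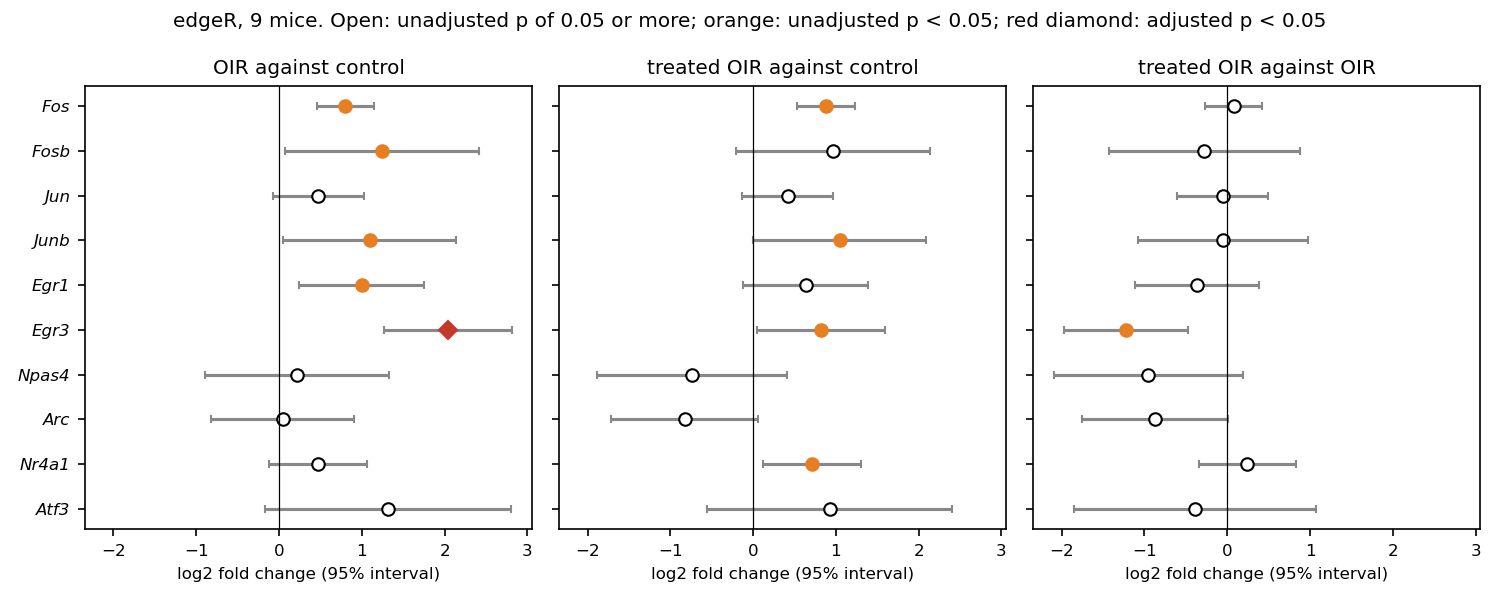
Log2 fold change with its 95% interval for each gene in 3 comparisons, from the edgeR fit of 9 mice. A red diamond marks an adjusted p below 0.05, orange an unadjusted p below 0.05, and open circles neither. *Egr3* in OIR mice compared with control mice has the diamond, and *Egr3* alone is orange in treated OIR mice compared with OIR mice.

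The second comparison asked how far retina treated with the HIF inhibitor lay from control retina, with the same control mice as before. None of the 10 genes was called (edgeR, adjusted p below 0.05), beside 0.0228% of all genes tested, and 4 had an unadjusted p below 0.05, beside 18.6% of all genes. DESeq2 on all 9 mice, DESeq2 on the groups compared, and limma-voom each called 1 of the 10, *Fos*. Over all genes these fits called 315 higher and 341 lower, 143 and 130, and 460 and 466. *Fos* and *Egr3* were higher in every treated OIR mouse than in every control mouse, 2 of the 10 beside 12.8% of all genes, and *Arc* was lower in every treated OIR mouse, 1 of the 10 beside 12.2%. Positive log2 fold changes were found for 8 genes, with *Npas4* and *Arc* as the exceptions, and the median of the 10 was 0.77 beside 0.01 over all genes. Without treated OIR mouse 2, 7 of the 10 were positive with a median of 0.29, and limma-voom gave a median of 0.38.

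*Fos* was measured at 53.4, 50.6, and 51.0 CPM in treated OIR mice 2, 5, and 10. These 3 mice lay within 1.05-fold of each other and all above the control mice, with a log2 fold change of 0.88 ± 0.15 (unadjusted p = 0.000268, edgeR adjusted p = 0.102). The adjusted p ranged from 5.86e-06 to 0.268 over the alternative analyses, and the log2 fold change from 0.85 to 0.93. *Egr3* lay at 3.11, 1.84, and 2.47 CPM in treated OIR mice, a little above the control mice (log2 fold change 0.82 ± 0.34, edgeR adjusted p = 0.248). Without treated OIR mouse 2 the log2 fold change of *Egr3* was 0.63.

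For *Fosb*, *Jun*, *Junb*, *Nr4a1*, and *Atf3* the mean of the treated mice rested on treated OIR mouse 2, which was the highest of all 9 mice for each. *Junb* was measured at 143, 55.1, and 38.1 CPM in treated OIR mice 2, 5, and 10, and *Atf3* at 45.5, 11.9, and 8.27 CPM. For *Atf3*, treated OIR mice 5 and 10 lay within the range of control mice, and for *Junb* treated OIR mouse 10 did, while mouse 5 was above the highest control mouse at 46.4 CPM. *Fosb* lay at 12.2, 4.35, and 4.32 CPM, *Jun* at 136, 79.8, and 72.8 CPM, and *Nr4a1* at 100.5, 42.4, and 58.3 CPM in the same mice. With treated OIR mouse 2 left out, the log2 fold change compared with control went from 1.04 to 0.29 for *Junb*, 0.96 to 0.28 for *Fosb*, 0.42 to 0.09 for *Jun*, 0.72 to 0.31 for *Nr4a1*, and 0.93 to -0.20 for *Atf3*. For *Fos* it went from 0.88 to 0.87. The same mouse had the crystallin share of 15.8%, ganglion cell markers at 60.3 CPM, and Müller glia markers (4 genes) at 1557 CPM, beside 2800 to 3890 CPM in the other 8 mice. Their part in these values was not tested.

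*Egr1* went the other way in treated OIR mouse 2, at 71.4 CPM beside 110.02 and 155 CPM in treated OIR mice 5 and 10. Its log2 fold change compared with control was 0.64 with all mice (edgeR adjusted p = 0.335) and 0.89 without that mouse. *Npas4* and *Arc*, the genes with the strongest link to neuronal activity here, were both lowest of all 9 mice in treated OIR mouse 2. *Npas4* was measured at 0.634, 0.981, and 2.31 CPM in treated OIR mice 2, 5, and 10, the first from 10 counts (exact 95% Poisson interval 4.80 to 18.4). *Arc* was measured at 1.01, 2.09, and 2.11 CPM, below the lowest control mouse in each case. The log2 fold changes were -0.74 for *Npas4* (edgeR adjusted p = 0.451) and -0.83 for *Arc* (edgeR adjusted p = 0.292), and -0.41 and -0.56 without treated OIR mouse 2. Amacrine cell markers in treated OIR mice 2, 5, and 10 summed to 191, 509, and 736 CPM, and their part in these values was not tested.

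**Figure D4:**
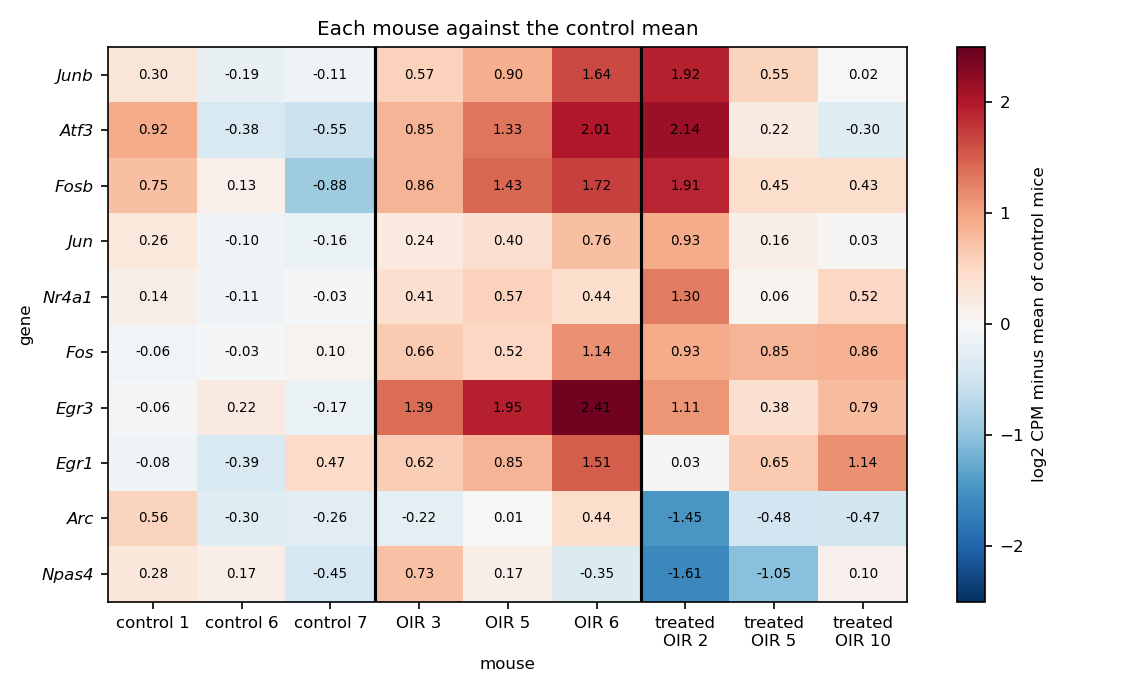
Log2 CPM of each gene (rows) in each mouse (columns) minus the mean of the control mice, with red for higher and blue for lower values, as printed in the cells. OIR mouse 6 and treated OIR mouse 2 have the deepest red for *Junb*, *Atf3*, and *Fosb*, while *Arc* and *Npas4* are blue in treated OIR mouse 2.

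The third comparison addressed the effect of the HIF inhibitor within ischemic retina, set treated OIR mice against OIR mice, and shares its OIR mice with the first comparison. None of the 10 genes, and 0% of all genes tested, was called by the edgeR quasi-likelihood test. Of the 10, 1 had an unadjusted p below 0.05, beside 4.69% of all genes (823 genes). DESeq2 called 35 genes of the table with all 9 mice and 77 with the groups compared, and limma-voom called 1, but none of the 10 was among these. The log2 fold change was negative for 8 genes and positive for *Fos* and *Nr4a1*, with a median of -0.32 beside 0.01 over all genes. *Egr3* and *Arc* were lower in every treated OIR mouse than in every OIR mouse, 2 of the 10 beside 5.39% of all genes.

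*Egr3* lay at 3.11, 1.84, and 2.47 CPM in treated OIR mice, all below the lowest OIR mouse at 3.80 CPM. Its level in treated OIR mice was 0.430 of that in OIR mice (95% interval 0.256 to 0.722, log2 fold change -1.22 ± 0.33, unadjusted p = 0.00502), and this did not hold after adjustment (edgeR adjusted p = 0.984). Over the 17 alternative analyses the log2 fold change lay between -1.45 and -0.93 and the unadjusted p stayed below 0.05, with adjusted p values of at least 0.157. It was -1.39 without treated OIR mouse 2 and -0.93 without OIR mouse 6. *Arc* had a log2 fold change of -0.87 (95% interval -1.75 to 0.01, edgeR adjusted p = 0.9998), and *Npas4* of -0.95 (95% interval -2.10 to 0.19, edgeR adjusted p = 0.9998). Over the alternative analyses these lay between -1.03 and -0.57 for *Arc* and between -1.66 and -0.60 for *Npas4*. Both upper ends came without treated OIR mouse 2, and both lower ends without treated OIR mouse 10.

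*Fos* had a log2 fold change of 0.08 between treated OIR and OIR mice (95% interval -0.26 to 0.43, edgeR adjusted p = 0.9998), an interval that leaves room for changes of up to 1.34-fold higher or to 0.834 of the OIR level. Its sign turned with scaling by total counts alone (-0.0181) and without OIR mouse 5 (-0.0403). *Jun* (-0.05) and *Junb* (-0.05) had log2 fold changes near 0, and without treated OIR mouse 2 these were -0.36 and -0.78. *Atf3* went from -0.39 to -1.47, *Fosb* from -0.28 to -0.93, and *Nr4a1* from 0.24 to -0.14 without the same mouse, while *Egr1* went from -0.36 to -0.10. With that mouse left out, 9 of the 10 log2 fold changes were negative, with a median of -0.59, and none passed the threshold (edgeR, adjusted p below 0.05). The median was close to 0 in other fits, at -0.0406 without OIR mouse 6 (6 of the 10 negative), -0.0626 without treated OIR mouse 5 (6 negative), and -0.0108 without treated OIR mouse 10 (5 negative).

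A single mouse often led its group across these genes. Control mouse 1 was the highest control mouse for 7 genes, OIR mouse 6 the highest OIR mouse for 8, and treated OIR mouse 2 the highest treated mouse for 7 and the highest of all 9 for 5. The median difference of the 10 genes from the control mean, on the log2 CPM scale, was 0.64 in OIR mouse 3, 0.71 in OIR mouse 5, and 1.33 in OIR mouse 6. It was 1.02 in treated OIR mouse 2, 0.30 in treated OIR mouse 5, and 0.27 in treated OIR mouse 10. Genes of 1 mouse share a library, so these are not independent measurements. In pairs chosen after their values were seen, Pearson's r across the 9 mice of log2 CPM was 0.98 for *Jun* and *Junb*, 0.97 for *Jun* and *Atf3*, and 0.93 for *Fosb* and *Atf3*, but 0.21 for *Egr1* and *Atf3* and -0.02 for *Arc* and *Atf3*. These describe 9 libraries of 3 groups, and treated OIR mouse 2 is an extreme point in each.

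The genes most like *Fos* across the 9 mice, among 13978 genes with a mean log2 CPM of at least 1, were *Zfp800* (Pearson's r 0.987), *Ythdf3* (0.983), *Sos2* (0.972), *Skil* (0.969), and *Zc3h14* (0.967). Those most like *Atf3* were *Smim3* (0.994), *Myd88* (0.989), *Synpo* (0.982), *Arg1* (0.980), and *Tmem159* (0.978). *Myd88* is the adaptor of Toll-like receptors, *Arg1* encodes arginase, and *Skil* encodes a repressor of SMAD signaling. The correlations listed are the highest among 13978 genes, picked by the same values over 9 libraries of all groups, and are descriptions only. For *Atf3*, treated OIR mouse 2 was the highest of the 9 mice at 45.5 CPM, and it had the crystallin share of 15.8%. The part of this mouse and of group differences in the correlations was not tested.

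Other primary response genes, 27 in the list and all tested, had a smaller median than the 10. In OIR mice compared with control mice 19 were higher and 8 lower, with a median log2 fold change of 0.46, and 2 were called, beside 0.941% of all genes tested. DESeq2 called 5 higher and 2 lower with all mice and 9 and 2 with the groups compared, limma-voom called 5 and 1, and edgeR with total counts alone called 1 and 0. The DESeq2 and limma-voom fits called 1805 of 30241, 2568 of 28876, and 2305 of 17540 genes. The 2 called in the main edgeR fit were *Trib1* (0.66 ± 0.11, edgeR adjusted p = 0.0407), which encodes a pseudokinase, and *Btg2* (0.57 ± 0.10, edgeR adjusted p = 0.0411), an antiproliferative gene. *Dusp5* (0.58), a phosphatase of ERK, and *Klf6* (0.66), a Krüppel-like factor, had the next lowest p values and were not called (edgeR adjusted p = 0.0605 and 0.0758). In treated OIR relative to control mice, 23 were higher and 4 lower, with a median of 0.41. Without treated OIR mouse 2, 16 were higher and 11 lower, with a median of 0.0976, and limma-voom gave 17 and 10 with a median of 0.17. The edgeR test called 0 of the 27, with 8 at an unadjusted p below 0.05, beside 18.6% of all genes tested. DESeq2 on all mice and limma-voom called 3 each, and DESeq2 on the groups compared called 0. Over all genes these 3 fits called 315 higher and 341 lower, 460 and 466, and 143 and 130. *Trib1* (0.49), *Btg2* (0.41), *Dusp5* (0.49), and *Klf6* (0.61) again had the lowest p values. In treated OIR mice compared with OIR mice 15 were higher and 12 lower, with a median of 0.06, and no tool called any. *Klf4* was the 1 gene with an unadjusted p below 0.05 (log2 fold change 1.001, edgeR adjusted p = 0.9998), beside 4.69% of all genes tested. The balance of higher and lower genes turned without treated OIR mouse 2 to 9 higher and 18 lower, with a median of -0.16. It turned with limma-voom to 11 and 16, with a median of -0.11, and without OIR mouse 3 to 13 and 14, with a median of -0.0309.

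Factors and kinases upstream of these genes had a median close to that of all genes. Of 24 such genes, 13 were higher and 11 lower in OIR mice than in control mice (median log2 fold change 0.04), and edgeR called 0, with 9 at an unadjusted p below 0.05, beside 23.8% of all genes tested. Of these 24, DESeq2 on all mice called 1 higher and 2 lower, DESeq2 on the groups compared 2 and 4, and limma-voom 3 and 4. Over all genes these fits called 1805 of 30241, 2568 of 28876, and 2305 of 17540. The lowest p values belonged to *Creb1* (0.44), *Rps6ka3* (0.46), *Camk2a* (-2.28), and *Srf* (0.30), with edgeR adjusted p values of 0.0868, 0.0905, 0.0979, and 0.128. *Creb1* encodes the CRE-binding factor CREB, *Rps6ka3* a kinase that phosphorylates it, *Camk2a* a calcium-dependent kinase of neurons, and *Srf* serum response factor. *Camk2a* had a log2 fold change of 1.26 in treated OIR mice compared with OIR mice (edgeR adjusted p = 0.9998).

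Delayed activity-regulated genes, which neurons transcribe after the immediate early genes, had mostly the opposite sign. In OIR mice 10 of 13 were lower than in control mice, with a median log2 fold change of -0.74. *Scg2* was the 1 called (-0.88 ± 0.15, edgeR adjusted p = 0.0432), beside 0.941% of all genes tested. *Scg2* and *Vgf* (-1.66, edgeR adjusted p = 0.0938) encode proteins of neuronal secretory granules, and *Nptx1* (-1.26, edgeR adjusted p = 0.0827) and *Nrn1* (-2.28, edgeR adjusted p = 0.230) encode proteins that act at synapses and on neurites. Ganglion cell and amacrine cell markers were also lower in every OIR mouse than in every control mouse, and their part in this was not tested. Without treated OIR mouse 2, 6 of the 13 were called lower and 1 higher, in a fit that called 2272 of 18116 genes. Without OIR mouse 6 none was called by edgeR, with 3 at an unadjusted p below 0.05, beside 2845 of 17986 genes in that fit. In treated OIR mice 9 of 13 were lower than in control mice (median -0.46), and all 13 were higher than in OIR mice (median 0.39). Against OIR mice, *Rgs2* alone had an unadjusted p below 0.05 (log2 fold change 0.39, edgeR adjusted p = 0.984), beside 4.69% of all genes tested. Without treated OIR mouse 2 the median relative to control mice was -0.16, with 9 of 13 lower, and 11 of the 13 were higher than in OIR mice. The median relative to OIR mice was 0.25 without treated OIR mouse 10.

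Genes commonly seen with *Atf3* in injury and stress showed no common direction, and their medians changed sign with single mice. Of 14, 9 were higher and 5 lower in OIR mice than in control mice, with a median log2 fold change of 0.10. Of these, edgeR called 0, with 2 of the 14 at an unadjusted p below 0.05, beside 23.8% of all genes tested. DESeq2 on all mice called 1 higher and 1 lower, DESeq2 on the groups compared 1 and 2, and limma-voom 0. The DESeq2 fits called 1805 of 30241 and 2568 of 28876 genes. The median was -0.0121 without control mouse 6 and -0.0412 without OIR mouse 6. The 2 with an unadjusted p below 0.05 by edgeR were *Hmox1*, encoding heme oxygenase 1 (4.002 ± 1.48, edgeR adjusted p = 0.149), and *Gap43*, a growth cone gene (-1.16 ± 0.45, edgeR adjusted p = 0.163). In treated OIR relative to control mice 10 were higher and 4 lower with a median of 0.14, but without treated OIR mouse 2 there were 4 higher and 10 lower with a median of -0.16, and limma-voom gave a median of -0.0414. *Ecel1*, a gene of injured neurons, had the lowest p (log2 fold change 1.98, edgeR adjusted p = 0.224). Of the other AP-1 and ATF family genes, 13 of 16 passed the filter, and *Batf*, *Batf2*, and *Batf3* did not. Of the 13, 8 were higher and 5 lower in OIR mice than in control mice, with a median log2 fold change of 0.23. *Jdp2*, whose product pairs with Jun and represses AP-1 sites, was the 1 called, beside 0.941% of all genes tested. It fell by 0.75 on the log2 scale in OIR mice (SE 0.11, edgeR adjusted p = 0.0407). It had a log2 fold change of -0.63 in treated OIR relative to control mice (edgeR adjusted p = 0.102). *Mafk* (0.68), *Atf7* (0.70), and *Atf1* (0.30) had the next lowest p values in OIR mice and were not called. *Fosl2*, another Fos family subunit, had a log2 fold change of 1.34 in treated OIR relative to control mice (edgeR adjusted p = 0.180).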

How the data were processed

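Total RNA of the retina was isolated with the miRNeasy mini kit and sequenced with Illumina protocols, per the labels. The deposited table holds unnormalized, whole-number gene counts, with 1 column for each of the 9 mice and the length of each gene. CASAVA and HISAT are named in the submitters' processing notes, and their versions, the counting tool, the annotation, and strandedness are not given in the sources used here. Coordinates are on GRCm38, because 98.3% of the 54409 identifiers also held by GENCODE M21 are placed identically in it, and *Npas4* is among those whose position differs. Counting error weighs most at low counts, and at higher counts the spread among 3 mice sets the precision. Exact Poisson intervals are given beside 3 low counts, and they cover counting error only.

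Counts of all 9 mice were fitted with edgeR 4.0.16 in R 4.3.3 (quasi-likelihood test, TMM factors, the default filter by group, 1 mean per group). A gene was called at a Benjamini-Hochberg adjusted p below 0.05 over the 17540 genes tested. SEs were derived from the log2 fold change and the F statistic, intervals are 95%, and log2 CPM used a prior count of 2. CPM values were divided by the deposited gene length to compare genes. For the 17 alternatives, DESeq2 1.42.0 was run with all mice or only the groups compared, edgeR with only the groups compared, and limma 3.58.1 as voom with quality weights per sample. Scaling was changed to upper-quartile factors or total counts alone, the filter was dropped or set to 10 counts in every mouse, and each of the 9 mice was left out. The genes named are the 10 genes, from each list at most 4 with the lowest p in a comparison and any called, and the 5 most like *Fos* and *Atf3*. The 10 genes and the lists were chosen with earlier results of these data known. Python 3.11.15 was used for tables (pandas 2.3.3, numpy 2.4.6) and plots (matplotlib 3.10.9). The promoter of *Egr1* is not reported here.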

Additional observations from a re-analysis of the deposited data

How the results depend on the processing

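No paired analysis was possible because any 2 groups share at most 1 replicate number, and the numbers name separate mice. Between OIR and control mice, 165 genes were called, against 1805 with DESeq2 on all 9 mice, 2568 with DESeq2 and 1771 with edgeR on the groups compared, 2305 with limma-voom, 37 with total counts alone, 532 without a filter, 376 with at least 10 counts in every mouse, and 0 to 2272 when 1 mouse was left out, the highest without treated OIR mouse 2. Of the 10 genes, 1 was called, against 3, 6, 4, 5, 0, 2, and 2 in the same order, 2 with upper-quartile factors, and 0 to 4 when 1 mouse was left out. Between treated OIR and control mice, 4 genes were called, against 656 with DESeq2 on all mice, 273 with DESeq2 on the groups compared, 0 with edgeR on the groups compared, 926 with limma-voom, 18 without a filter, and 0 to 6 when 1 mouse was left out. Of the 10 genes, 0 were called there, but 1 (*Fos*) with either DESeq2 fit and with limma-voom. In treated OIR mice compared with OIR mice, 0 genes were called, against 35, 77, 1, and 1 with the DESeq2 fits, limma-voom, and no filter. The sign of the log2 fold change turned when a mouse was left out for *Npas4* (range -0.11 to 0.45) and *Arc* (-0.17 to 0.40) in OIR compared with control mice, and for *Atf3* (-0.20 to 1.56) in treated OIR compared with control mice. In treated OIR compared with OIR mice it turned for *Fos* (-0.0403 to 0.29, and -0.0181 with total counts alone), *Jun* (-0.36 to 0.11), *Junb* (-0.78 to 0.32), *Nr4a1* (-0.14 to 0.49, and -0.22 with limma-voom), and *Atf3* (-1.47 to 0.00482). None of these was called in the fit of all mice, and the cause was not tested. For the 10 genes under 17 alternatives, 138, 166, and 159 values kept their direction and side of the threshold in the 3 comparisons. Counts of *Egr3*, *Arc*, and *Npas4* were between 10 and 174 per mouse, so counting error adds to their spread.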
